A study of Mus musculus with 6 samples.

Results

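Retinoid transport and metabolism was examined through 8 genes chosen by name: Stra6, Crabp2, Rdh10, Dhrs9, Aldh1a1, Aldh1a3, Dhrs3 and Cyp26b1. All 8 had a row in the deposited count table, which lists 23420 genes, and 7 of them passed the filter on low counts and were tested. RNA came from mouse epidermal keratinocytes in culture, the main cell type of the epidermis. All 6 libraries came from cells with both copies of Gata6 flanked by loxP sites (Gata6 fl/fl). The 3 libraries labelled WT lacked K14CreERT2, and the 3 labelled iKO (induced knockout) carried it. K14CreERT2 is a Cre recombinase that 4-hydroxytamoxifen activates and that the keratin 14 promoter drives in basal keratinocytes. Both groups were grown at low calcium, used at passage 8 to 10 and given 1 µM 4-hydroxytamoxifen, with 6 hours of treatment. Libraries are named here by group and column number: WT 2, WT 3, WT 4, iKO 3, iKO 4 and iKO 33. No label says that replicate libraries had separate animals or cultures as their source, so the p-values rest on a spread that may be technical.

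Retinol (vitamin A) enters many cells through a membrane receptor and is oxidised in steps, first to retinal by short-chain dehydrogenases and then to retinoic acid by aldehyde dehydrogenases. Retinoic acid is carried to nuclear receptors by a small binding protein and is degraded by cytochromes of the CYP26 family, and a reductase can turn retinal back into retinol. In epidermis, retinoic acid is known for restraining terminal differentiation and for altering the turnover of the skin.

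The libraries held 21943467 to 83337263 gene counts. The level of Gata6 itself was opposite to what the labels say: its normalised CPM (counts relative to the scaled size of the library) ran from 0.519 to 5.37 in the libraries labelled WT and from 14.2 to 21.0 in those labelled iKO. In edgeR Gata6 did not pass (adjusted p = 0.180), and DESeq2 called it (adjusted p = 0.00136). Counts per gene can include reads outside the deleted exons and do not check the deletion. Esr1, an oestrogen receptor gene, averaged 0.147 CPM over the WT group against 73.7 CPM over the iKO group, without overlap. It passed in edgeR (adjusted p = 0.00678). Whether reads from K14CreERT2 were counted as Esr1 was not tested. Kdm5d, a Y-linked gene, was at 0 counts in WT 2, WT 3 and WT 4, and Xist averaged 736 ± 143 CPM there against 1.17 ± 1.31 CPM in the other group (SD, n = 3), so sex and label cannot be told apart. Reads without a unique alignment made up 29.5% to 30.5% of counts in the libraries labelled WT and 21.7% to 26.5% in those labelled iKO, and their part in the results was not tested. All 12 listed keratinocyte markers passed the count filter, and the basal keratin gene Krt5 had at least 14719 CPM in each library. Without overlap, Trp63 was lower (320 CPM in WT, 200 in iKO) and Cdh1 higher (433 and 635 CPM). Neither passed in edgeR (adjusted p = 0.0529 and 0.130), and DESeq2 called both (adjusted p = 3.90e-07 and 0.00953). The groups of the other keratinocyte markers overlapped. Of the listed markers of other cell types, 2 of 9 fibroblast genes (Pdgfra and Vim), 4 of 8 melanocyte genes (Tyr, Pmel, Mlana and Mitf), 2 of 5 endothelial genes (Kdr and Pecam1) and 1 of 7 immune genes (Cd68) passed the filter, all with overlapping groups. The summed level of each list was 1.15 to 3.15, 6.08 to 11.9, 9.31 to 19.0 and 1.91 to 4.17 CPM in the libraries labelled WT, and 1.09 to 4.42, 5.69 to 8.47, 7.29 to 8.94 and 2.62 to 3.29 CPM in the others, with Kdr the highest single gene at 10.2 ± 5.65 CPM in WT. Dcn, Lum, Dct, Kit, Emcn, Emr1 and Cd207 had no count in any library. Of 10 listed sebocyte and duct genes 6 passed the filter. This list summed to 614 to 764 CPM in the libraries labelled WT and 671 to 803 CPM in the others. Without overlap, Plin2 was higher (106 CPM in WT, 194 in iKO) and Cidea lower (2.62 and 0.849 CPM). Neither passed in edgeR (adjusted p = 0.0609 and 0.0754), and DESeq2 called both (adjusted p = 1.64e-05 and 1.60e-05). Scd1, Fasn, Krt79 and Krt7 had overlapping groups. The part of such cells in the results was not tested.

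Of the 8 genes, Crabp2 was the 1 whose groups did not overlap, and it stood 3.73-fold higher in the libraries labelled iKO. In edgeR's quasi-likelihood test, 0 of the 7 tested genes passed 0.05 after Benjamini-Hochberg adjustment over all 12672 tested genes, of which 0.339% passed (43 genes, 0.229% higher and 0.11% lower). Crabp2 came closest (adjusted p = 0.0576), it was the 1 member with an unadjusted p under 0.05 in edgeR, and it was the 1 member that DESeq2 called, where 5.45% of 13875 genes were called (2.88% higher and 2.57% lower). The unadjusted p was under 0.05 for 15% of all tested genes (7.32% higher and 7.7% lower), and limma-voom called no member and 0.489% of all tested genes. Groups that do not overlap were found for 21.9% of tested genes (10.5% higher and 11.3% lower), so 1 of 7 is no more than the background share. Fitted values were higher in the libraries labelled iKO for 4 members and lower for 3, and 51.2% of all tested genes had a value above 0. The median log2 fold change of the 7, always given as iKO minus WT, was 0.29, against 0.01 over all tested genes.

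**Figure D1:**
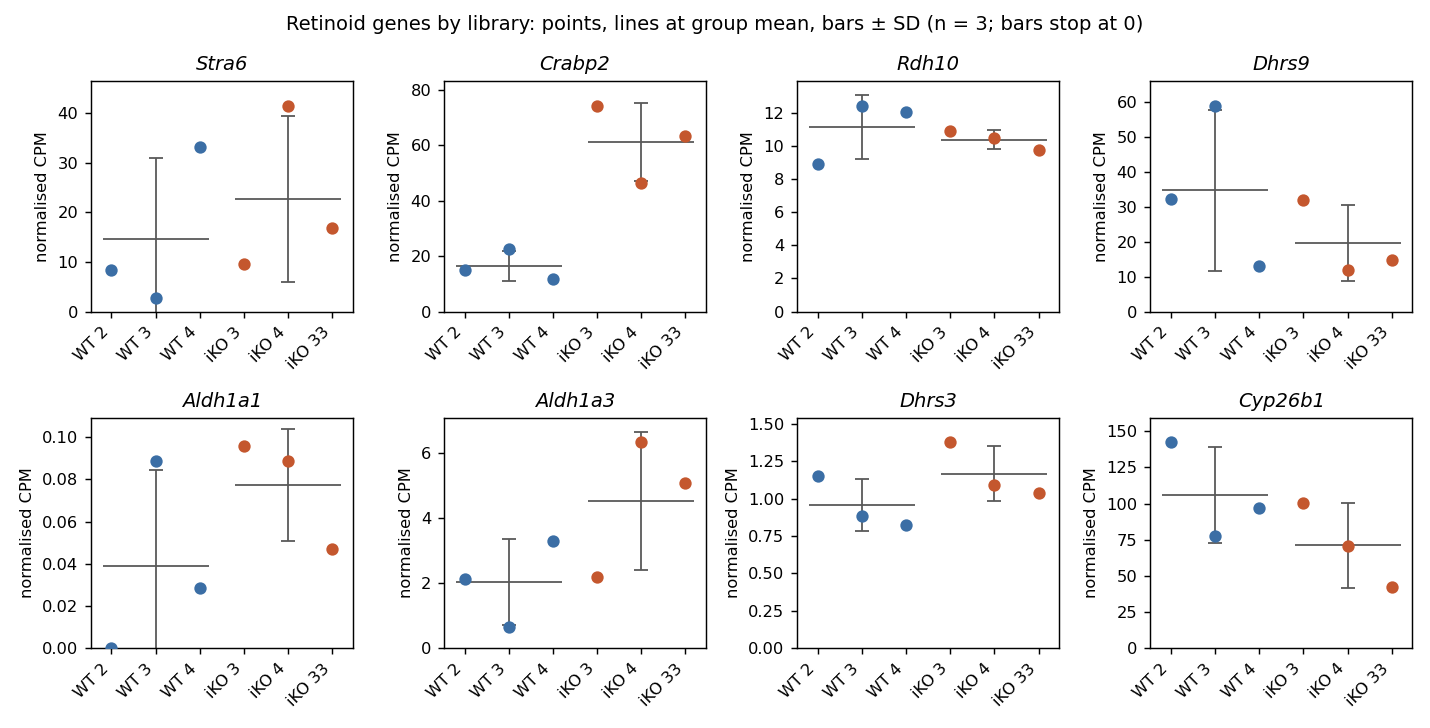
Normalised CPM of the 8 retinoid genes (vertical axes from 0, a scale for each gene) in each of the 6 libraries (horizontal axes); points are libraries, lines are group means and bars are ± SD (n = 3). Crabp2 lies between 11.8 and 22.5 CPM in the libraries labelled WT and between 46.4 and 74.3 CPM in those labelled iKO, while the groups of the other 7 genes overlap.

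Stra6 encodes the membrane receptor that takes up retinol from its plasma carrier, and it lies on chromosome 9, 58063788 to 58153996, plus strand (mm10, GENCODE M21). Its normalised CPM was 8.30, 2.74 and 33.2 for WT 2, WT 3 and WT 4 against 9.62, 41.5 and 16.8 for iKO 3, iKO 4 and iKO 33. WT 4 and iKO 4 were high, WT 3 was low, and the groups overlapped over most of their range. The group values were 14.7 ± 16.2 and 22.7 ± 16.8 CPM (SD, n = 3), and the log2 fold change was 0.62 (SE 0.90, 95% interval -1.50 to 2.74). It did not pass in edgeR (adjusted p = 0.801). The sign rested on single libraries: the log2 fold change was -0.15 without iKO 4, 0.12 without WT 3 and 2.07 without WT 4. The gene Ccdc33 on the opposite strand overlaps Stra6 in its introns, with 0 shared exonic bases in the annotation.

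Crabp2 encodes cellular retinoic acid binding protein 2, which carries retinoic acid to its nuclear receptor, and lies on chromosome 3, 87948666 to 87953376, plus strand. Its coding sequence is shown because it bears on which gene its reads can be assigned to. The paralogue Crabp1 shares 70.8% of 414 aligned coding bases with it, and no run of identical bases is longer than 11. The first 240 of its 417 coding bases are given from the GENCODE M21 transcripts, with capitals for the bases that differ from Crabp1 or have no partner in it (70 here, 124 in the whole).
Crabp2: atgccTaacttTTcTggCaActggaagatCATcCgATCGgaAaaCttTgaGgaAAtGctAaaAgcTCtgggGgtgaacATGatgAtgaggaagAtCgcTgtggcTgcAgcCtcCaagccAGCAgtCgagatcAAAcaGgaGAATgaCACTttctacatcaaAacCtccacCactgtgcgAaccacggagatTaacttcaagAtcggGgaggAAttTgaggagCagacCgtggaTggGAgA

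Crabp2 measured 15.2, 22.5 and 11.8 CPM for WT 2, WT 3 and WT 4 against 74.3, 46.4 and 63.4 for iKO 3, iKO 4 and iKO 33. Every library labelled iKO was higher than every library labelled WT, and the lowest of them, iKO 4, stood at 46.4 against 22.5 CPM in the highest of the others. The means were 16.5 ± 5.46 and 61.3 ± 14.1 CPM (SD, n = 3). The log2 fold change was 1.89 (SE 0.28, 95% interval 1.23 to 2.55), with an unadjusted p of 0.000254 that ranked 55 among the 12672 genes tested in edgeR. The adjusted p was 0.0576 in edgeR's quasi-likelihood test and 3.82e-08 in DESeq2. The fold change stayed between 1.69 (without WT 4) and 2.19 (without WT 3) when single libraries were left out. Its edgeR adjusted p was 0.0446 without WT 3 and between 0.0840 and 0.249 without any of the other 5. In the authors' deposited table, made from the same counts, Crabp2 had a log2 fold change of 1.52 (SE 0.24) and an adjusted p of 5.09e-08. The DESeq2 fit made here gave a log2 fold change of 1.89 (SE 0.29). These estimates can differ in method, and the cause of the difference was not tested.

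These libraries are bulk samples, in which more cells of a type and more RNA per cell cannot be told apart. Crabp2 is known to be expressed in suprabasal keratinocytes and in dermal fibroblasts. Of 10 listed suprabasal marker genes 9 were tested, 4 with a fold change above 0 (Tgm1, Grhl3, Ivl and Tgm3) and 5 below (Krt1, Krt10, Lor, Krtdap and Sbsn). Tgm1, a transglutaminase gene of the cornified envelope, stood at 27.7 ± 3.84 CPM in WT and 99.0 ± 42.8 CPM in iKO libraries (SD, n = 3), with no overlap and an adjusted p of 0.0690 in edgeR and 5.04e-07 in DESeq2. Grhl3, a transcription factor gene of epidermal differentiation, stood at 36.0 ± 5.82 and 73.9 ± 24.9 CPM with no overlap (adjusted p = 0.152 in edgeR and 0.00607 in DESeq2). Ivl, which encodes the envelope protein involucrin, had overlapping groups at 50.7 ± 14.6 and 104 ± 45.1 CPM. The keratin genes of the spinous layer were lower without overlap, Krt10 at 16.1 ± 6.56 and 7.47 ± 2.51 CPM (adjusted p = 0.226 in edgeR and 0.0434 in DESeq2) and Krt1 at 3.40 ± 0.234 and 1.71 ± 1.15 CPM. The summed level of that list, most of it Krtdap and Sbsn, ran from 642 to 1271 CPM in the libraries labelled WT and from 526 to 1717 CPM in those labelled iKO. The part of suprabasal cells in the Crabp2 difference was not tested.

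Crabp1, the paralogue that binds the same ligand, was below the count filter and was named with its values known. Its counts were 1, 4 and 5 for WT 2, WT 3 and WT 4 against 4, 48 and 36 for iKO 3, iKO 4 and iKO 33. That is 0.0461 to 0.142 CPM in the libraries labelled WT and 0.128 to 1.07 CPM in those labelled iKO, with overlap, and DESeq2 did not call it (adjusted p = 0.0957). Fabp5, a fatty acid binding protein that can also carry retinoic acid, was at 1656 ± 318 and 1786 ± 983 CPM (SD, n = 3). Its log2 fold change was 0.11 (SE 0.40, 95% interval -0.83 to 1.05), and iKO 4 was low at 848 CPM. Fabp5 has near-identical pseudogene copies, so its counts are uncertain.

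Retinol is oxidised to retinal by Rdh10, the dehydrogenase on which retinoic acid synthesis in the embryo depends, and Dhrs9 encodes a related short-chain dehydrogenase. Rdh10 (chromosome 1, 16105774 to 16133734, plus strand) measured 8.90, 12.4 and 12.1 CPM for WT 2, WT 3 and WT 4 against 10.9, 10.5 and 9.77 for iKO 3, iKO 4 and iKO 33. The libraries labelled iKO lay inside the range of those labelled WT. The log2 fold change was -0.10 (SE 0.18) with a 95% interval of -0.53 to 0.32, which is 0.695-fold to 1.25-fold, and the edgeR adjusted p was 0.833. This was the narrowest interval among the 7 tested members.

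Dhrs9 (chromosome 2, 69380445 to 69404533, plus strand) measured 32.2, 58.9 and 13.1 CPM for WT 2, WT 3 and WT 4 against 32.0, 12 and 14.8 for iKO 3, iKO 4 and iKO 33. WT 3 was high and both libraries numbered 4 were low, with overlap between the groups. The means were 34.7 ± 23.0 and 19.6 ± 10.8 CPM (SD, n = 3). The log2 fold change was -0.83 (SE 0.58, 95% interval -2.19 to 0.53; edgeR adjusted p = 0.553). It ranged from -1.37 without iKO 3 to -0.21 without WT 3.

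Retinal is oxidised to retinoic acid by the aldehyde dehydrogenases of the Aldh1a family. Aldh1a1 (chromosome 19, 20492715 to 20643465, plus strand) was close to undetected and below the count filter, with counts of 0, 7 and 1 for WT 2, WT 3 and WT 4 against 3, 4 and 4 for iKO 3, iKO 4 and iKO 33. No library exceeded 0.0959 CPM, and the count of 0 in WT 2 allows a level of up to 0.138 CPM (3 counts), a limit that covers counting error only. Aldh1a7, a neighbouring paralogue, is 91.6% identical to Aldh1a1 over 1506 coding bases with a shared run of 100 bases, so the few reads of either are uncertain. Aldh1a2 was also below the filter, and DESeq2 gave it no adjusted p.

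Aldh1a3 (chromosome 7, 66390890 to 66427517, minus strand) was therefore the 1 tested gene of this family among Aldh1a1, Aldh1a2, Aldh1a3 and Aldh1a7. It measured 2.12, 0.658 and 3.30 CPM for WT 2, WT 3 and WT 4 against 2.17, 6.31 and 5.06 for iKO 3, iKO 4 and iKO 33. WT 3 was low, and iKO 3 lay within the range of the libraries labelled WT. The means were 2.03 ± 1.32 and 4.51 ± 2.12 CPM (SD, n = 3). The log2 fold change was 1.18 (SE 0.63, 95% interval -0.32 to 2.67), and the adjusted p was 0.435 in edgeR and 0.307 in DESeq2. It was 0.73 without WT 3 and 1.76 without WT 4.

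Dhrs3 encodes a reductase that returns retinal to retinol, and Cyp26b1 encodes a cytochrome that degrades retinoic acid. Dhrs3 (chromosome 4, 144892827 to 144928209, plus strand) was near 1 CPM throughout: 1.15, 0.886 and 0.825 for WT 2, WT 3 and WT 4 against 1.37, 1.09 and 1.04 for iKO 3, iKO 4 and iKO 33. Only WT 2 among the libraries labelled WT reached into the range of the others. The log2 fold change was 0.29 (SE 0.31, 95% interval -0.43 to 1.02; edgeR adjusted p = 0.713), and it rests on 25 to 88 counts per library.

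Cyp26b1 (chromosome 6, 84571414 to 84593908, minus strand) measured 142, 77.6 and 97.1 CPM for WT 2, WT 3 and WT 4 against 101, 70.6 and 42.2 for iKO 3, iKO 4 and iKO 33. WT 2 was high, iKO 33 was low, and the other 4 libraries overlapped. The means were 106 ± 33.2 and 71.1 ± 29.2 CPM (SD, n = 3). The log2 fold change was -0.57 (SE 0.35, 95% interval -1.39 to 0.24; edgeR adjusted p = 0.488). It was -0.90 without iKO 3, -0.30 without WT 2 and -0.30 without iKO 33. Cyp26a1 and Cyp26c1, the other genes of the CYP26 family, were listed with no count in any library, so Cyp26b1 was the 1 detected member of that family.

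**Figure D2:**
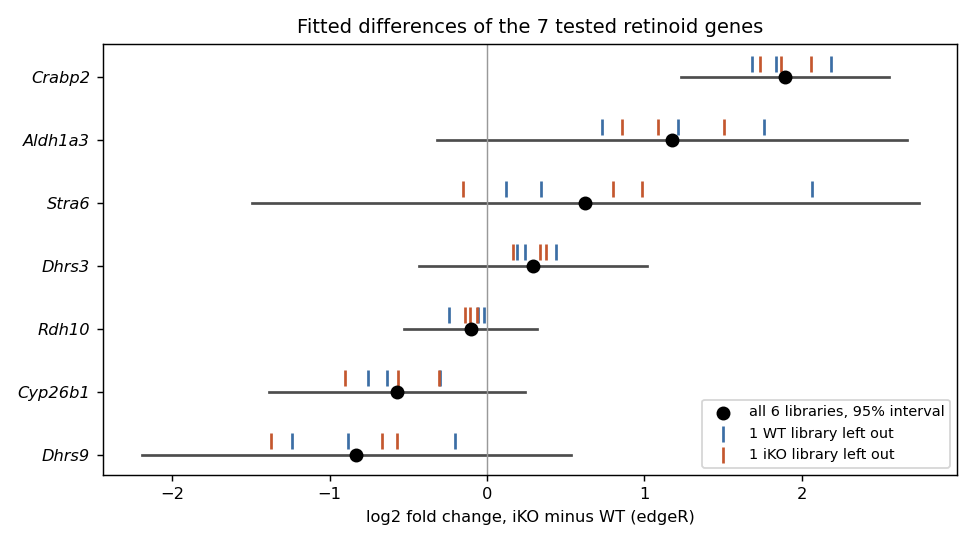
Log2 fold changes (horizontal axis, iKO minus WT, edgeR) of the 7 tested retinoid genes; black points are fits to all 6 libraries with 95% intervals, and ticks are fits with 1 library left out (blue for WT, orange for iKO). The interval of Crabp2, 1.23 to 2.55, lies above 0, the other 6 cross 0, and the ticks of Stra6 run from -0.15 to 2.07.

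Levels can be compared between genes only per length, here as CPM per kb of the longest coding transcript in the annotation. In the libraries labelled WT this level was 23.5 ± 7.38 for Cyp26b1, 17.7 ± 5.86 for Crabp2, 8.11 ± 5.38 for Dhrs9, 4.79 ± 5.27 for Stra6 and 3.10 ± 0.539 for Rdh10 (SD, n = 3). Aldh1a3 stood at 0.588 ± 0.384, Dhrs3 at 0.408 ± 0.0746 and Aldh1a1 at 0.0166 ± 0.0192 CPM per kb. Ranges of neighbours in this order overlapped down to Rdh10, and those of Aldh1a3 and Dhrs3 overlapped each other. Every library labelled WT had more Cyp26b1 than Dhrs9 on this scale (17.3 to 31.6 against 3.06 to 13.8), while Crabp2 (12.6 to 24.1) overlapped Dhrs9.

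In the libraries labelled iKO, Crabp2 led with 65.9 ± 15.1 CPM per kb, and its lowest library (49.8) was above the highest of Cyp26b1 (22.4). Cyp26b1 followed at 15.8 ± 6.49, Stra6 at 7.36 ± 5.44, Dhrs9 at 4.58 ± 2.53 and Rdh10 at 2.89 ± 0.156. Aldh1a3 stood at 1.31 ± 0.616 and Dhrs3 at 0.499 ± 0.0781 CPM per kb. With all annotated exonic bases as the length, Stra6 and Rdh10 changed places in the libraries labelled WT (2.53 and 2.67 CPM per kb). In those labelled iKO, Stra6 and Dhrs9 changed places (3.89 and 4.58 CPM per kb).

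**Figure D3:**
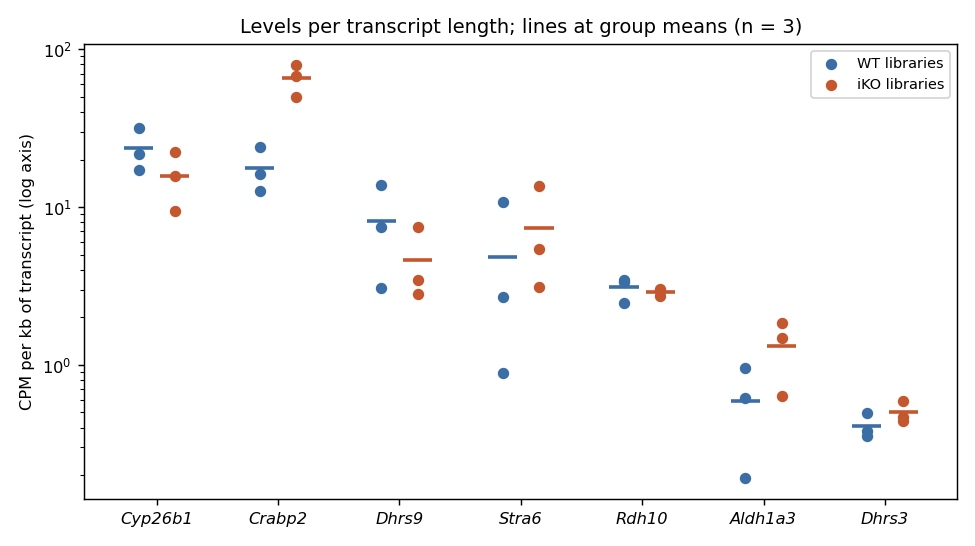
CPM per kb of the longest coding transcript (vertical log axis) for 7 retinoid genes in order of their mean in the libraries labelled WT; points are libraries and lines are group means (n = 3). Aldh1a1 is left out because WT 2 is at 0, Cyp26b1 and Crabp2 lie at the top, and Crabp2 is the 1 gene whose 3 libraries labelled iKO all lie above its libraries labelled WT.

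The members differed in how much they varied within a group. The SD of log2 CPM of Stra6 was 1.79 within the libraries labelled WT and 1.06 within those labelled iKO, above 99.7% and 98.0% of the 10519 tested genes with a mean log2 CPM of at least 1. Aldh1a3 (1.16 and 0.80) was above 98.5% and 95.8% of them, and Dhrs9 (1.09 and 0.74) above 98.3% and 95.1%. Crabp2 (0.47 and 0.35) was above 87.7% and 79.3%, and Cyp26b1 (0.44 and 0.63) above 86.5% and 93.3%. Rdh10 (0.26 and 0.08) was above 67.1% and 12.8%. The medians of those genes were 0.19 in each group.

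The order of the libraries was compared between members after the values were seen, as a description. Aldh1a3 ranked the 3 libraries of each group in the same order as Stra6, with WT 4 above WT 2 above WT 3 and iKO 4 above iKO 33 above iKO 3. Dhrs9 and Crabp2 ranked them in the reverse order in both groups, and Cyp26b1 and Rdh10 in neither. Among the 46 other listed retinoid genes at that level, Rara, Nrip1, Akr1b8 and Hoxb4 had the order of Stra6, and Rxra, Rdh12, Rdh14, Sdr16c5 and Sdr16c6 had the reverse, which is 8.70% and 10.9%. Among the 10519 genes 8.91% had the order of Stra6 in both groups and 7.63% the reverse, so those shares are near the background. Gata6 also had its lowest level within a group in WT 3 and in iKO 3 and its highest in WT 4 and iKO 4.

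Promoter windows from RefSeq (GRCm38.p6, 250 bases before to 50 after a start site) were matched for Aldh1a1, Cyp26b1, Dhrs3, Dhrs9 and Stra6, 5 of the 8 genes, with 11 windows in all. The letters searched on both strands were the nuclear receptor half-sites AGGTCA and AGTTCA, direct repeats of either with 1, 2 or 5 bases between, and 4 forms of the GATA letters: AGATAA, which was searched beside AGATAG, and TGATAA, which was searched beside TGATAG. Different letters can overlap in a window. AGGTCA was in 1 window (Dhrs9) and in 16.3% of all 32851 windows, and AGTTCA in 1 window (Stra6) and in 14.0% of all. The GATA letters were in 4 windows, of Aldh1a1, Dhrs9 and Stra6, and in 29.8% of all. Direct repeats were in none of the 11, and in 0.0822%, 0.0396% and 0.0396% of all windows for spacings of 1, 2 and 5. A match is a description of letters only. Both kinds of letters were in the window of Dhrs9 and in 1 window of Stra6. Dhrs9 is shown as the example with AGGTCA: chr2:69380212-69380444, plus strand, up to the first annotated exonic base, with AGATAG and, on the opposite strand, AGGTCA (read as TGACCT) in capitals.
Dhrs9: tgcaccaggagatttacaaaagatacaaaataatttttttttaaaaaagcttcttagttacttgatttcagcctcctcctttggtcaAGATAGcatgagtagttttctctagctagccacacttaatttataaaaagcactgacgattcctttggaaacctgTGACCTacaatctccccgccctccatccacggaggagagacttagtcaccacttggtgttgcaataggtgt

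The rest of the retinoid pathway was described through 6 lists holding 95 genes, of which 61 were tested, with 30 fitted values above 0 and 31 below (median log2 fold change -0.01). None passed in edgeR over all genes. An unadjusted p under 0.05 was reached by 6 of the 61 (9.84%), against 15% of all tested genes, and DESeq2 called 3. Groups did not overlap for 11 (18.0%), against 21.9% of all.

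Among 13 binding and uptake genes 4 were tested, 3 higher and 1 lower. Besides Fabp5, the lipoprotein receptor gene Scarb1 stood at 0.06 (SE 0.16) and Rbp2 at -0.13 (SE 0.66). Among 12 genes of retinyl ester and carotenoid handling 6 were tested, 5 higher and 1 lower. Lpl, lipoprotein lipase, was that 1, at 2.95, 2.82 and 6.51 CPM in the libraries labelled WT against 0.544, 0.867 and 1.58 CPM. Its log2 fold change was -2.01 (SE 0.52), with an adjusted p of 0.163 in edgeR and 0.00340 in DESeq2. Dgat2 (0.60, SE 0.35), Pnpla2 (0.23, SE 0.16) and Lipe (0.13, SE 0.18), genes of triglyceride synthesis and breakdown, had overlapping groups. Lrat, the main retinol esterifying enzyme, was below the count filter.

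Among 30 other retinol and retinal oxidoreductase genes 21 were tested, 7 higher and 14 lower, with a median log2 fold change of -0.13. Dhrs1, a short-chain dehydrogenase gene, measured 46.5 ± 4.76 and 76.6 ± 17.4 CPM (SD, n = 3; log2 fold change 0.72, SE 0.18), with no overlap, and passed in DESeq2 (adjusted p = 0.0194) but not in edgeR (adjusted p = 0.160). Rdh11, a retinal reductase gene, stood at 138 ± 32.4 and 95.7 ± 16.0 CPM (log2 fold change -0.52, SE 0.20), with overlap. Dhrs11 (0.84, SE 0.37) and Rdh13 (-0.21, SE 0.10) did not overlap between groups. Of 4 clearance genes Cyp2s1 was tested, at -0.28 (SE 0.34).

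Among 16 receptor and partner genes 13 were tested, 6 higher and 7 lower. Rarg, the main retinoic acid receptor gene of epidermis, named for its role, measured 97.9 ± 18.5 and 103 ± 24.7 CPM (log2 fold change 0.07, 95% interval -0.43 to 0.57). Its partner Rxra stood at 207 ± 33.3 and 167 ± 34.2 CPM (log2 fold change -0.31, SE 0.19). The coactivator genes Ncoa3 and Ncoa2 stood at -0.33 (SE 0.13) and -0.24 (SE 0.14), and Nr2f2, an orphan receptor gene, at -0.34 (SE 0.16). Of these, Ncoa3 had groups that did not overlap. Rarb was below the count filter.

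Among 25 genes known to respond to retinoic acid in various cells 18 were tested, 11 higher and 7 lower, with a median log2 fold change of 0.29. Hbegf, a growth factor gene of the EGF family, measured 52.5, 38.7 and 54.0 CPM in WT 2, WT 3 and WT 4 and 91.3, 76.8 and 79.9 CPM in iKO 3, iKO 4 and iKO 33. Its groups did not overlap, and the log2 fold change of 0.77 (SE 0.16) passed in DESeq2 (adjusted p = 0.00219) but not in edgeR (adjusted p = 0.109). Ripk4, a kinase gene of keratinocyte differentiation, stood at 123 ± 2.32 and 176 ± 34.4 CPM with no overlap (log2 fold change 0.52, SE 0.15; edgeR adjusted p = 0.191). Tgm2, a transglutaminase gene, overlapped between groups at 1.48 (SE 0.71), with iKO 3 high at 232 CPM. Cyp26a1 had no count in any library, and Rarb and Lrat were below the count filter, so these known target genes gave no comparison in edgeR.

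**Figure D4:**
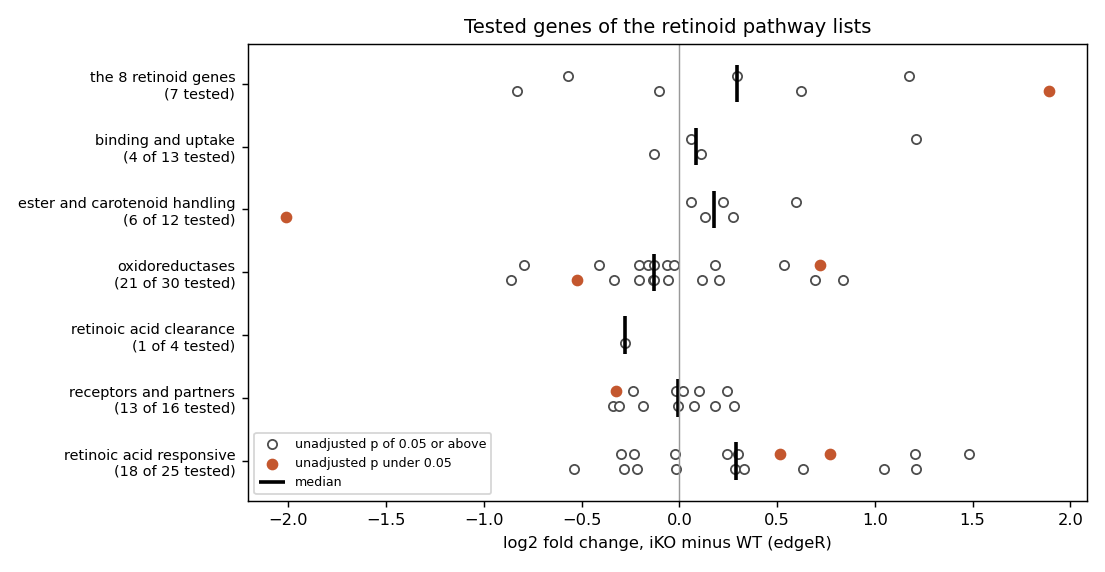
Log2 fold changes (horizontal axis, iKO minus WT, edgeR) of the 7 tested retinoid genes and of the tested genes of 6 lists of other retinoid genes (rows); filled points have an unadjusted p under 0.05 and bars are medians. The medians lie between -0.28 and 0.29, Crabp2 is the filled point of the top row at 1.89, and Lpl is the point at -2.01.

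By likeness of pattern over the 6 libraries (Pearson's r of log2 CPM among 10091 named genes, given as a description), the genes closest to Crabp2 were Snx4, Pnpla6 and N4bp1 (r = 0.995, 0.991 and 0.991). Their own log2 fold changes were 0.23, 0.31 and 0.32. Closest to Aldh1a3 were Ano8, Moxd1 and Arpc1b (r = 0.999, 0.996 and 0.994), of which Moxd1 averaged 15.9 CPM in WT and 56.0 CPM in iKO libraries. Closest to Cyp26b1 were Safb2, Cxxc1 and Epha1 (r = 0.994, 0.992 and 0.992).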

How the data were processed

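The 8 genes and all gene lists were chosen with earlier results of these data known. The deposited table gives, for each gene symbol, a raw count of reads, which the authors made with TopHat2 and HTSeq on mm10, per the submitters' processing notes. For versions, annotation and strand the sources used here give nothing. Summary rows of HTSeq, 27.4% to 35.5% of counts, were dropped. The authors' second deposited table has, per the file headers, the mean signal after normalisation, log2 fold change and its SE, Wald score and p-values from DESeq2. A column numbered 33, a number in no title, served as an iKO library with no number of its own. The sample titled iKO2 has no count column of that number, and no label says whether column 33 is that sample.

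filterByExpr (minimum count 10) selected the genes, TMM gave the scaling, and edgeR 4.0.16 in R 4.3.3 tested the group as the single term (glmQLFit, glmQLFTest, robust, two-sided), adjusted by Benjamini-Hochberg over 12672 genes. The SE is the log2 fold change over the root of F, without its sign, and intervals use the t quantiles of that fit. Log2 CPM has a prior count of 2. Alternatives were other scalings and filters, DESeq2 1.42.0, limma-voom 3.58.1, no robust estimation, a replicate block and single libraries left out. The scripts were tested on simulated data with 100 genes changed 2-fold and 100 changed 4-fold. False calls numbered 14 in edgeR, 17 in limma-voom and 65 in DESeq2. Of the 2-fold changes edgeR recovered 59, limma-voom 49 and DESeq2 82. Of the 4-fold changes they recovered 97, 99 and 98. Calls made by DESeq2 alone are therefore treated as less certain here. The simulated data were a single draw, with the spread of each gene estimated by edgeR. They cannot settle how reliable any of the 3 fits is on the real counts. Named were the 8 genes, up to 4 genes per retinoid list by smallest p, and the 3 genes most alike in pattern to each of the 3 members with the smallest p. Rarg, Crabp1, Aldh1a2, Aldh1a7, Lrat, Rarb, Cyp26a1, Cyp26c1, Esr1, the markers and the genes set beside the order of Stra6 were added with their values known. A gene chosen by this rule is not reported here. Positions and transcript lengths come from GENCODE M21 (mm10).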

Additional observations from a re-analysis of the deposited data

How the results depend on the processing

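The count of genes past the threshold was 43 in edgeR, 76 with no filter on low counts and 756 in DESeq2. Leaving out single libraries gave 7 to 31: 7 without WT 2, 13 without iKO 4, 17 without iKO 33, 20 without iKO 3, 21 without WT 4 and 31 without WT 3. Of the 7 tested members, 1 (Crabp2) passed with no filter (adjusted p = 0.0366), in DESeq2, with the replicate block (adjusted p = 0.0220) and without WT 3, so leaving out single libraries gave 0 to 1. The replicate block used the 4 libraries numbered 3 and 4 and called 103 genes and 1 member, against 4 genes and 0 members in the same 4 libraries without it, a fit added after seeing the data. Deviations of same-numbered libraries from their group means correlated at 0.596 over genes. With 2 pairs and no label that ties the numbers to a shared source, they share only a number. In that block Stra6 stood at 1.03, Cyp26b1 at -0.04 and Dhrs9 at -0.51. Over 15 alternatives Crabp2 stayed between 1.69 and 2.19, and its adjusted p ran from 3.82e-08 to 0.583. Stra6 ran from -0.15 without iKO 4, a change of sign, to 2.07 without WT 4, and in limma-voom it stood at 1.41; the other 6 tested members kept their sign under all 15. The cause of these changes was not tested. Aldh1a1, with 0 to 7 counts per library, was too low for a comparison at this depth.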
